A study of Mus musculus with 14 samples.

Results

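The genes described here encode the nuclear subunits of the oxidative phosphorylation system. They are the protein-coding rows of the count table whose mouse symbol begins with Ndufa, Ndufb, Ndufc, Ndufs, Ndufv, Uqcr, Cox4 to Cox8 or Atp5, together with Sdha to Sdhd and Cyc1. Pseudogenes and the Ndufaf assembly factors were left out. The rule found 86 of the 24100 genes in the table: 36 subunits of complex I, 4 of complex II, 9 of complex III, 20 of complex IV and 17 of complex V. Ndufa4 and Ndufa4l2 carry complex I names but were counted with complex IV, where the Ndufa4 protein is now placed.

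The mice carried normal Astn2 (wild type, WT) or a knockout of it (KO) and came from crosses with the Tg(Pcp2-L10a-EGFP) bacTRAP line. In this line a Pcp2 promoter, active in Purkinje cells, drives ribosomal protein L10a fused to EGFP. WT and KO littermates of both sexes were studied at postnatal day 21, and every animal of both genotypes carried the transgene. Translating ribosome affinity purification (TRAP) pulls down the tagged ribosomes with antibodies to GFP, and the RNA bound to them was sequenced. Input is a share of the same kind of cleared cerebellar homogenate, set aside before the pull-down. There were 4 input WT, 3 input KO, 3 TRAP WT and 4 TRAP KO libraries, with totals of 18.8 to 54.2 M counts (M, 1e6). The labels do not say which libraries come from separate animals, so the p-values measure the spread between these libraries. Below, a level or share is given with its SD over the libraries of its group, and a log2 fold change with its SE (standard error).

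Oxidative phosphorylation is the last stage of respiration in the inner mitochondrial membrane. Complexes I and II pass electrons from NADH and succinate to ubiquinone, complex III passes them on to cytochrome c, and complex IV hands them to oxygen. Complexes I, III and IV pump protons, and complex V, the ATP synthase, uses the proton gradient to make ATP. Most subunits are encoded in the nucleus and imported after translation on cytosolic ribosomes, and several complex IV subunits exist as common and tissue-restricted isoforms. Purkinje cells fire continuously and are rich in mitochondria.

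Library quality was examined first, because TRAP WT replicates 2 and 3 stood apart. Astn2 was at 94.4 ± 6.90 CPM (read counts per 1e6, scaled with TMM factors) in input WT and 0.885 ± 0.127 in input KO, and at 130 ± 14.8 in TRAP WT and 1.52 ± 0.447 in TRAP KO. The summed level of 12 Purkinje cell markers was 7000 to 7323 CPM in input WT and 7566 to 8718 CPM in input KO. Every input KO library was thus above every input WT library, and the reason was not tested. In TRAP the sum was 82700 to 88922 CPM in WT and 75820 to 85604 CPM in KO. All 10 granule cell markers were lower in TRAP in both genotypes. Of the 78 members that are not tissue-restricted isoforms, 56 had their highest TRAP level in WT replicate 2 and 36 their lowest in WT replicate 3. In WT replicate 3, 23 members lay more than 1.5-fold below every other TRAP library and 4 more than 1.5-fold above. Atp5e, the epsilon subunit of the ATP synthase head, was 51.1 CPM in TRAP WT replicate 3 against 531 and 749.5 in the other WT libraries and 430 to 582 in KO. Atp5j, a peripheral stalk subunit, went the other way, with 2535 CPM against 651 and 799 in WT and 602 to 707 in KO. What sets this library apart was not tested. Values without it are given beside the members and medians it moves most.

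**Figure D1:**
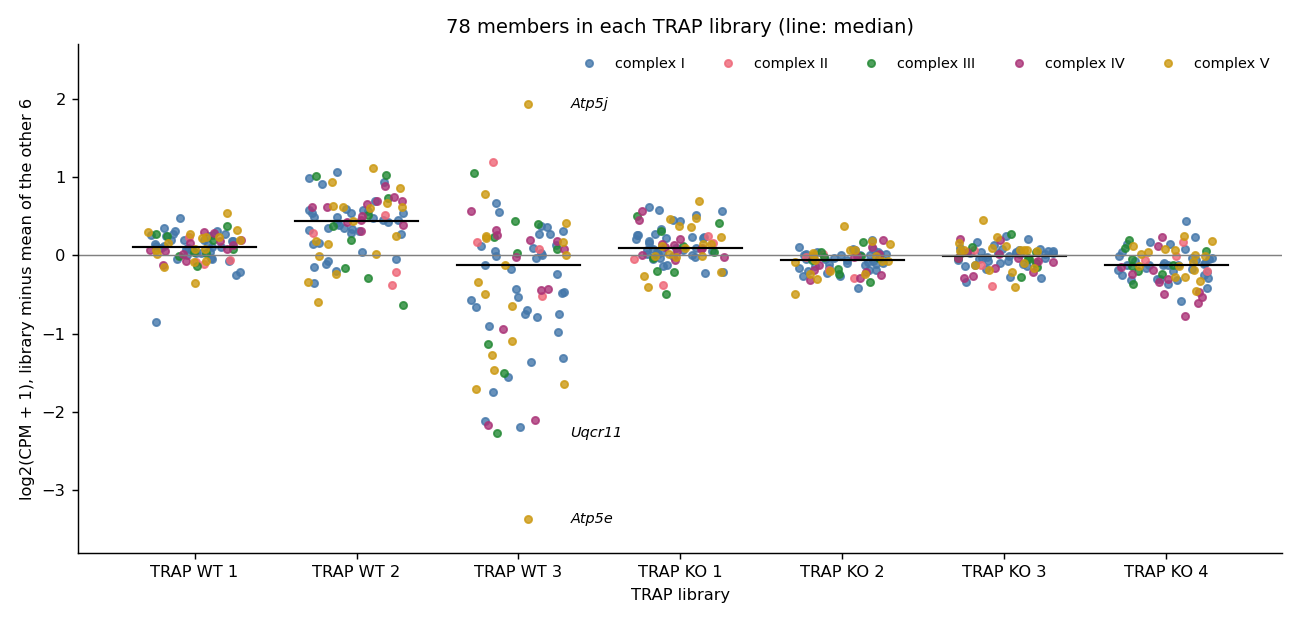
Level of 78 members in each TRAP library as the difference in log2(CPM + 1) from the mean of the other 6 TRAP libraries (points, coloured by complex; black line, median). TRAP WT 3 spreads from -3.37 for Atp5e to 1.93 for Atp5j, and TRAP WT 2 has most points above 0.

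The 86 members took a larger share of all counts in TRAP libraries. In input WT it was 1.50%, 1.43%, 1.56% and 1.52% in replicates 1 to 4, and in input KO 1.43%, 1.51% and 1.47%. In TRAP WT it was 3.59%, 4.04% and 3.13%, and in TRAP KO 3.50%, 3.31%, 3.41% and 3.03%, so TRAP and input libraries did not overlap. Complex IV subunits changed their share the most, from 0.349% ± 0.0172 in input WT to 1.14% ± 0.184 in TRAP WT, a ratio of 3.27. The ratio was 2.49 for complex I, 2.42 for complex III, 1.81 for complex V and 1.76 for complex II in WT. In KO the ratios were 2.96 for complex IV, 2.44 for complex I, 2.33 for complex III, 1.75 for complex V and 1.65 for complex II.

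TRAP was then compared with input gene by gene, to ask which subunit transcripts are relatively abundant on Purkinje cell ribosomes. In WT, 81 of the 85 members tested rose at an edgeR adjusted p under 0.05 (quasi-likelihood test) and 1 fell. Of all 16042 genes tested, 37.0% rose and 38.5% fell. The median log2 fold change of the members was 2.28 (4.84-fold), beside -0.09 over all genes tested. In KO, 81 of 85 members rose and 3 fell, beside 36.3% and 39.6% of all genes, with a median of 2.18. The same 81 members rose in both genotypes. In 77 members every TRAP WT library was above every input WT library, as in 34.2% of all genes tested. In KO the same held for 81 members, beside 37.3%. Atp5e, Atp5g2, Cox7a2l and Ndufb7 rose in WT by the test but had overlapping libraries. Both genotypes enter one fit with a shared estimate of the spread.

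The log2 fold changes are relative to the TMM scaling, and Purkinje cell content and the amount of each transcript per cell or per ribosome cannot be told apart in these bulk samples. With library totals in place of TMM factors the median of all genes tested moved to -0.91 in WT and -0.84 in KO. The median of the members was then 1.45 and 1.44, with 71 higher and 4 lower in WT and 73 and 4 in KO. Of all genes, 19.6% were then higher and 61.1% lower in WT, and 19.5% and 60.3% in KO. A change of scaling shifts all genes by nearly the same amount, so the members' distance from the median of all genes could hardly move. This distance was 2.36 in WT under both scalings, and 2.29 in KO under both. Without TRAP WT replicate 3 the WT median was 2.43 with 81 members higher, and without TRAP WT replicate 2 it was 1.96 with 80 higher.

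**Figure D2:**
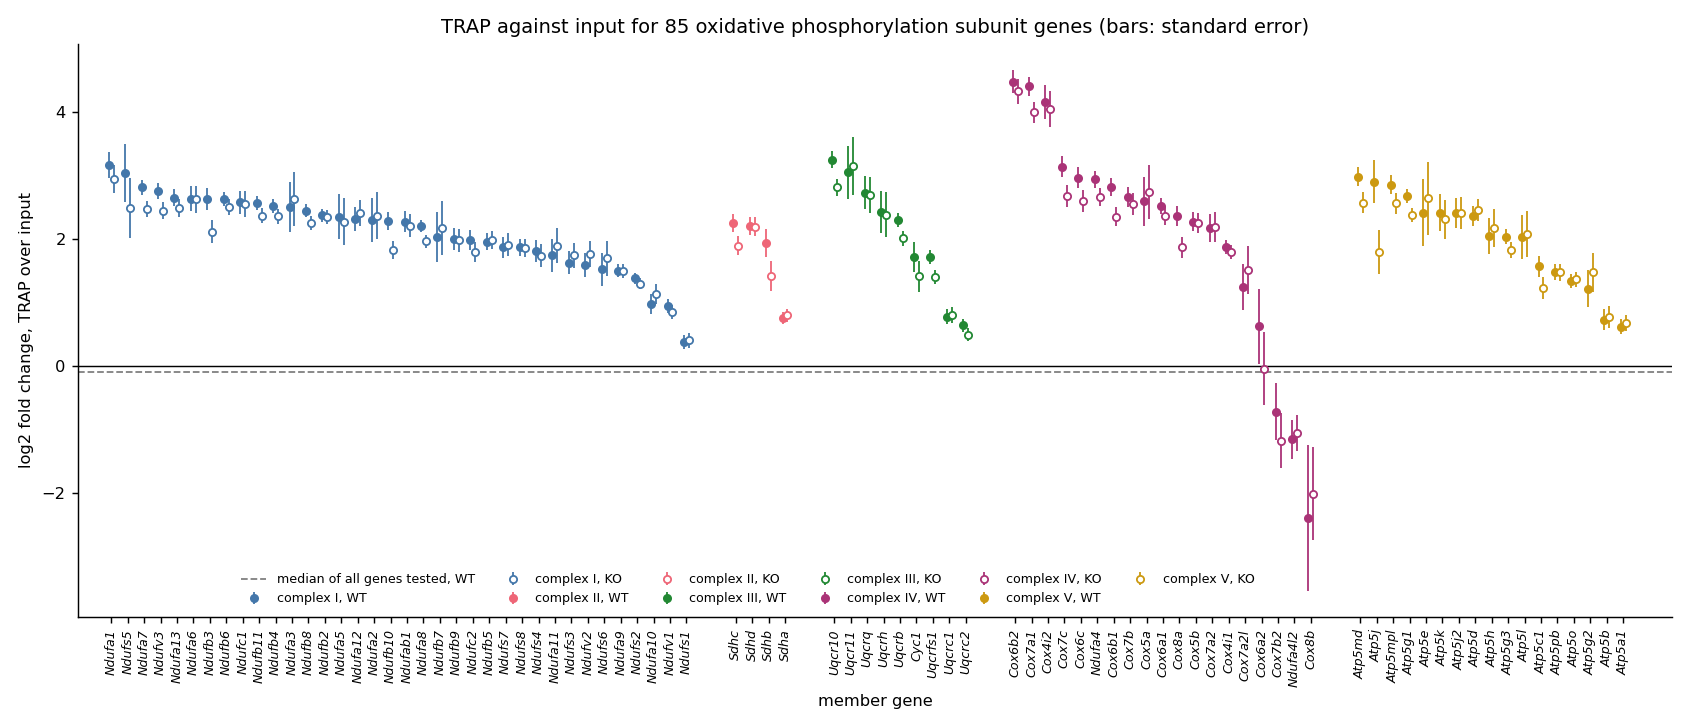
Log2 fold change of TRAP over input for the 85 members tested, by complex, in WT (filled) and KO (open), with standard errors; the dashed line is the WT median of all genes tested. In both genotypes 81 members lie above 0 past the threshold (with library totals 71 in WT and 73 in KO), and Ndufs1, Sdha, Uqcrc2 and Atp5a1 lie lowest in complexes I, II, III and V.

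In complex I, which oxidises NADH, all 36 subunits rose in both genotypes. With library totals Ndufs1 passed as lower, at -0.44 in WT (edgeR adjusted p = 0.00323) and -0.33 in KO (edgeR adjusted p = 0.0183). Ndufv1 then passed in neither genotype, and Ndufa10 did not pass in WT. Ndufa1, a small membrane subunit, was 65.2, 61.2, 60.4 and 57.4 CPM in input WT and 546, 735 and 375 CPM in TRAP WT. In KO it was 53.2, 72.1 and 57.5 CPM in input and 550, 459, 484 and 344 CPM in TRAP. No TRAP library came near an input library. The log2 fold change of Ndufa1 was 3.17 ± 0.21 in WT (edgeR adjusted p = 9.77e-09) and 2.95 ± 0.22 in KO. Ndufa7, another small subunit, had 2.82 ± 0.11 in WT and 2.48 ± 0.12 in KO. Ndufs1, which carries iron-sulfur clusters in the NADH-oxidising arm and is the largest subunit, was 82.3, 96.6, 106 and 109 CPM in input WT and 114, 118 and 144 CPM in TRAP WT. Its TRAP libraries lay above its input libraries by a narrow margin, and the log2 fold change was 0.38 ± 0.11 in WT (edgeR adjusted p = 0.00842). Ndufv1, the subunit that binds NADH, had 0.95 ± 0.11 in WT and Ndufa10 0.98 ± 0.15. The 7 catalytic core subunits had a median of 1.59 in WT and the 29 supernumerary subunits 2.36. In KO these medians were 1.75 and 2.27. None of these medians is adjusted for transcript length, which is examined further on.

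Ndufs5 is given together with its pseudogene Ndufs5-ps, since the counts of this pair were divided between both genes differently from library to library. How reads were assigned to the pair was not tested. In TRAP over input, Ndufs5 alone had 3.04 ± 0.45 in WT and 2.49 ± 0.48 in KO. Ndufs5 alone was 46.8, 42.3, 77.7 and 10.2 CPM in input WT and 75.1, 82.0 and 81.1 CPM in input KO. Ndufs5-ps was 39.9, 38.4, 2.11 and 71.7 CPM in the same WT libraries and 2.04 to 2.44 CPM in input KO. The sum of both was 79.8 to 86.7 CPM in input WT and 77.5 to 84.0 CPM in input KO. The groups overlapped for the sum, as they did for Ndufs5 alone. In TRAP WT the pseudogene held 228 and 404 CPM in replicates 1 and 2 and 0.330 CPM in replicate 3, beside 240, 382 and 468 CPM for Ndufs5. The log2 fold change of KO over WT in input was 0.79 for Ndufs5 alone and -0.06 for the sum, and in TRAP 0.34 and -0.31. Neither passed the threshold. Against input, the log2 fold change of the sum was 2.81 in WT; the KO value was 2.53.

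Complex II, succinate dehydrogenase, is the complex encoded by nuclear genes alone. All 4 subunits rose in both genotypes, except that with library totals Sdha did not pass in either and was at -0.063 in WT. The membrane anchor Sdhc was 114, 115, 118 and 110 CPM in input WT and 455, 643 and 523 CPM in TRAP WT, with no overlap. Sdhc had a log2 fold change of 2.25 ± 0.14 and the other anchor Sdhd 2.21 ± 0.14 in WT. The flavoprotein Sdha, which oxidises succinate, was 233, 270, 301 and 299 CPM in input WT and 454, 420 and 501 CPM in TRAP WT. Its libraries did not overlap either, but the log2 fold change was smaller (WT 0.76 ± 0.10, KO 0.80 ± 0.10). The iron-sulfur subunit Sdhb stood between them at 1.94 ± 0.22 in WT, with TRAP levels of 271, 231 and 587 CPM, and without TRAP WT replicate 3 the log2 fold change was 1.40.

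In complex III, which carries electrons from ubiquinol to cytochrome c, all 9 subunits rose in both genotypes. With library totals Uqcrc1 and Uqcrc2 passed in neither, at -0.041 and -0.18 in WT and 0.078 and -0.24 in KO. With length offsets, described further on, Uqcrc2 did not pass in KO, at 0.17 (edgeR adjusted p = 0.206). The small subunit Uqcr10 was 67.6, 65.2, 62.2 and 60.1 CPM in input WT and 508, 676 and 634 CPM in TRAP WT. In TRAP KO it was 512, 406, 424 and 400 CPM, above every input library as well. For Uqcr10 the log2 fold change was 3.25 ± 0.13 (WT) and 2.82 ± 0.14 (KO). The core proteins Uqcrc1 and Uqcrc2, large subunits on the matrix side, had 0.78 ± 0.12 and 0.64 ± 0.10 in WT and 0.81 ± 0.12 and 0.50 ± 0.11 in KO. Uqcrc2 was 132, 149, 158 and 152 CPM in input WT and 221, 203 and 256 CPM in TRAP WT. Uqcrfs1, the Rieske iron-sulfur protein, had 1.72 ± 0.11 in WT and 1.41 ± 0.11 in KO. Cyc1, cytochrome c1, had 1.72 ± 0.23 and 1.41 ± 0.25. With single libraries left out, the WT value of Cyc1 ran from 1.22 to 1.97 and that of Uqcrfs1 from 1.59 to 1.80. In TRAP WT, Cyc1 was at 435 CPM per kb of transcript, and at 314 without replicate 3. Uqcr11 had 3.06 ± 0.42 in WT from TRAP levels of 885, 1293 and 182 CPM, the last in replicate 3, and it was 2.21 without TRAP WT replicate 2 and 3.52 without replicate 3.

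In complex IV, cytochrome c oxidase, the 11 common subunits rose in both genotypes, with median log2 fold changes of 2.59 (WT) and 2.36 (KO). Cox7c was 177, 169, 175 and 169 CPM in input WT and 1186, 1860 and 1499 CPM in TRAP WT, a log2 fold change of 3.14 ± 0.16. Cox6c had 2.97 ± 0.16 and Ndufa4 2.94 ± 0.13. Cox4i1, the common isoform of the subunit through which ATP regulates the enzyme, had the smallest rise of the 11, at 1.88 ± 0.11 in WT and 1.80 ± 0.11 in KO. Cox7a2l, a relative of Cox7a that joins complexes III and IV into supercomplexes, had 1.25 ± 0.36 in WT and 1.52 ± 0.37 in KO. Its TRAP WT levels were 247, 322 and 58.4 CPM, and the value in replicate 3 was below every input library. Without TRAP WT replicate 2 the rise of Cox7a2l in WT was 0.55 and did not pass (edgeR adjusted p = 0.159), and without replicate 3 it was 1.68. With length offsets Cox7a2l was at 0.47 in WT and did not pass (edgeR adjusted p = 0.179), and with library totals it passed in neither genotype, at 0.42 in WT and 0.78 in KO.

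The tissue-restricted isoforms of complex IV went both ways, and 3 of them had the highest log2 fold changes of all members. Cox6b2 is best known as the testis isoform of Cox6b, Cox7a1 as the heart and skeletal muscle isoform of Cox7a, and Cox4i2 as the lung and hypoxia-related isoform of Cox4i. The promoter-side sequences of both gene pairs with an entry in the RefSeq table are shown here, because each pair sets a tissue-restricted gene beside its common counterpart. They run 5′ to 3′ from 250 to 11 bases before the annotated RefSeq start, build GRCm38.p6, for Cox6b2 at chr7:4753105-4753344 and Cox6b1 at chr7:30626125-30626364, both on the minus strand, Cox7a1 at chr7:30183921-30184160 on the plus strand and Cox7a2 at chr9:79759864-79760103 on the minus strand. Capitals mark a match to CCGGAAG or its reverse complement, the core letters bound by ETS factors such as GABP.
Cox6b2: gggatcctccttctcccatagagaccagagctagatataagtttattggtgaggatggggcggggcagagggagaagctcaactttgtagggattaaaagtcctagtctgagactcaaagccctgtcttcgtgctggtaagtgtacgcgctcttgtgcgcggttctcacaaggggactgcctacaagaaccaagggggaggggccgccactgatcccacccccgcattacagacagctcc
Cox6b1: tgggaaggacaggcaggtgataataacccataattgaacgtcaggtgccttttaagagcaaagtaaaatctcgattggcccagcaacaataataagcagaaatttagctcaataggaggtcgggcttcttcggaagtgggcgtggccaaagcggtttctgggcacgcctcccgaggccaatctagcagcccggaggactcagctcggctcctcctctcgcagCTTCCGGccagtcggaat
Cox7a1: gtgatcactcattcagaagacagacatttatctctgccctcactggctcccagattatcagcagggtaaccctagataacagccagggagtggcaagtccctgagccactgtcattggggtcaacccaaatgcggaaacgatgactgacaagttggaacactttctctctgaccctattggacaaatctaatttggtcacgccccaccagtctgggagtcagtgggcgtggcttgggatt
Cox7a2: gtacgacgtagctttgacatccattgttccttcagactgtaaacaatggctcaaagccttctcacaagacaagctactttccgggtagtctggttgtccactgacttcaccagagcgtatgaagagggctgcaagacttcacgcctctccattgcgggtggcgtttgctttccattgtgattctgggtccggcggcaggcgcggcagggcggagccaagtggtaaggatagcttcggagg
Cox6b1 holds such a match and the other 3 stretches hold none. The CG dinucleotide occurs 8 times in the Cox6b2 stretch and 13 times in that of Cox6b1, and 4 times in that of Cox7a1 against 13 for Cox7a2.

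Cox6b2 was 6.71, 9.99, 8.61 and 6.59 CPM in input WT and 8.17, 8.37 and 8.75 CPM in input KO. In TRAP it was 148, 219 and 163 CPM in WT and 201, 151, 144 and 183 CPM in KO. Every TRAP library was far above every input library. Its log2 fold change was 4.48 ± 0.18 in WT, a 22.4-fold difference (edgeR adjusted p = 2.04e-10), and 4.33 ± 0.20 in KO. The common isoform Cox6b1 was 172, 153, 160 and 161 CPM in input WT and 964, 1364 and 1073 CPM in TRAP WT, a log2 fold change of 2.82 ± 0.14. Per kb of transcript, Cox6b2 made up 4.98% ± 1.15 of the pair in input WT and 14.1% ± 0.370 in TRAP WT. In KO its share was 5.31% ± 0.428 in input and 18.3% ± 2.54 in TRAP.

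Cox7a1 was 4.72, 4.54, 3.56 and 3.22 CPM in input WT and 4.01, 4.57 and 3.97 CPM in input KO. In TRAP it was 75.9, 100.0 and 79.0 CPM in WT and 73.7, 65.0, 62.8 and 60.4 CPM in KO. Again no libraries overlapped, and the log2 fold change was 4.41 ± 0.15 in WT and 4.00 ± 0.17 in KO. Cox7a2, the common isoform, had 2.18 ± 0.22 in WT and 2.19 ± 0.23 in KO. The share of Cox7a1 in the pair, per kb, was 3.49% to 5.23% in the 4 input WT libraries. It was 15.0%, 15.3% and 26.5% in TRAP WT and 13.8% to 14.7% in TRAP KO. The value of 26.5% belongs to TRAP WT replicate 3, in which Cox7a2 was 297 CPM against 586 and 751 in the other WT libraries.

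Cox4i2 was 1.74, 2.11, 2.78 and 1.79 CPM in input WT and 28.8, 55.1 and 28.9 CPM in TRAP WT. In KO it was 2.30, 2.05 and 2.81 CPM in input and 51.8, 37.9, 34.9 and 32.3 CPM in TRAP. The log2 fold change of Cox4i2 was 4.16 ± 0.26 in WT and 4.05 ± 0.28 in KO. It remained a small part of the pair: 0.454% ± 0.0925 in input WT and 2.13% ± 0.612 in TRAP WT, the rest being Cox4i1.

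**Figure D3:**
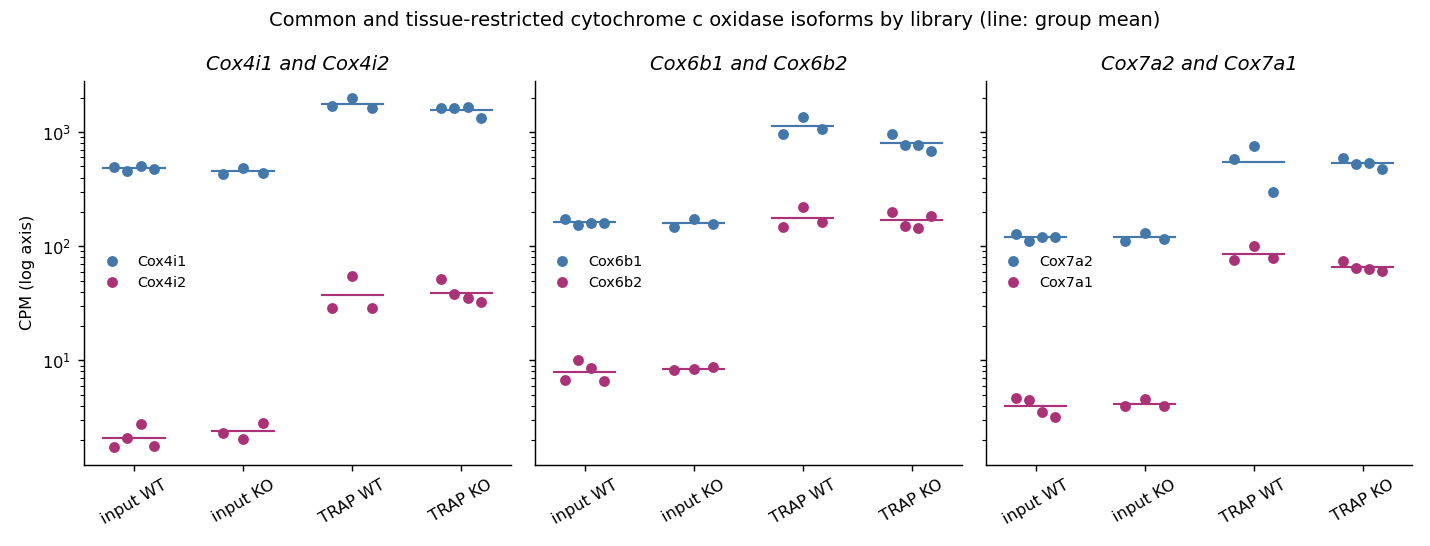
CPM of the common (blue) and tissue-restricted (purple) isoform of 3 complex IV subunits in every library, on a log axis, with a line at each group mean. Cox4i2, Cox6b2 and Cox7a1 rise from 1.74 to 9.99 CPM in input WT to 28.8 CPM and more in TRAP WT.

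The other tissue-restricted isoforms had low levels. Ndufa4l2, the hypoxia-induced relative of Ndufa4, had 9 to 103 counts per library and was 1.85, 1.78, 2.01 and 1.03 CPM in input WT and 0.816, 1.01 and 0.495 CPM in TRAP WT. It fell by 1.16 on the log2 scale in WT, with an SE of 0.31 (edgeR adjusted p = 0.00352), and by 1.06 in KO. Cox7b2 had 7 to 17 counts in each input WT library and 3 to 4 in each TRAP WT library, and Cox8b, a muscle isoform, 5 to 10 and 0 to 2. The detection limit taken here is 3 counts, which is 0.0444 to 0.204 CPM depending on the library. Both fell past the threshold in KO, and neither did in WT. In KO, Cox7b2 did not pass in the DESeq2 Wald test (adjusted p = 0.0582) or with the replicate number as a block (edgeR adjusted p = 0.131). In WT, Cox8b passed without TRAP WT replicate 2 (edgeR adjusted p = 0.0148), and both passed with library totals and with length offsets. Cox6a2, the muscle isoform of Cox6a, had 9 to 19 counts in input WT and 8 to 13 in TRAP WT and did not pass the threshold. Cox8c had 1 count in all 14 libraries together and was not tested.

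Muscle and endothelial genes were measured beside these isoforms. The summed level of 10 skeletal and heart muscle markers was 3.77 to 4.95 CPM in input WT and 2.11 to 2.24 CPM in TRAP WT, where Cox7a1 was at 75.9 CPM or more. It was 104 CPM in input KO replicate 1 and 31.3 CPM in TRAP KO replicate 1, against at most 4.71 in the other KO libraries. Input KO replicate 1 also had the highest Cox6a2, with 1.06 CPM, and the highest Cox8b, with 0.907 CPM. Without it Cox8b did not pass the threshold in KO, with an adjusted p of 0.105, nor did Cox7b2, with 0.0870. Cox6a2 then rose by 1.10 (edgeR adjusted p = 0.0345). Cox8b also did not pass without TRAP KO replicate 2, nor Cox7b2 without input KO replicate 3 or TRAP KO replicate 1, 2 or 4. The 8 endothelial markers summed to 23.4 to 34.1 CPM in input WT and 10.1 to 10.7 CPM in TRAP WT, and all 8 were lower in TRAP WT, with a median log2 fold change of -1.82. In KO they summed to 15.7 to 24.2 CPM in input and 6.03 to 13.6 CPM in TRAP, and 5 of the 8 were lower, with a median of -1.25.

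All 17 subunits of complex V rose in both genotypes, except that with library totals Atp5a1 and Atp5b passed in neither, at -0.20 and -0.090 in WT and -0.055 and 0.046 in KO, and that Atp5g2 did not pass in WT. With length offsets Atp5g2 passed in neither genotype and Atp5j did not pass in KO, at 0.87 (edgeR adjusted p = 0.0645). Atp5md, a small membrane subunit, was 130, 115, 124 and 116 CPM in input WT and 779, 1159 and 928 CPM in TRAP WT, a log2 fold change of 2.98 ± 0.15. Atp5mpl, also a small membrane subunit, had 2.86 ± 0.15. Atp5j had 2.91 ± 0.34 in WT and 1.80 ± 0.35 in KO, and without TRAP WT replicate 3 the WT value was 2.03. Atp5a1 and Atp5b, the alpha and beta subunits that form the catalytic head, had the lowest values with Atp5g2, at 0.62 ± 0.12 and 0.73 ± 0.17 in WT. Atp5a1 was 564, 662, 770 and 786 CPM in input WT and 993, 943 and 1204 CPM in TRAP WT, without overlap.

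The c-ring of the ATP synthase is built from one mature protein that 3 genes encode with different import signals. Atp5g1 had a log2 fold change of 2.67 ± 0.11 in WT, Atp5g3 2.04 ± 0.12 and Atp5g2 1.22 ± 0.30. With library totals the value of Atp5g2 was 0.40 and did not pass (edgeR adjusted p = 0.226), and with length offsets it was 0.16 in WT and 0.51 in KO (edgeR adjusted p = 0.527 and 0.0555). The WT value of Atp5g2 was 0.65 without TRAP WT replicate 2 and 1.60 without replicate 3. Per kb of the longest transcript, Atp5g3 held 71.5% ± 0.152 of the family in input WT and 76.3% ± 4.33 in TRAP WT. Atp5g1 held 6.13% ± 0.201 in input WT and 10.4% ± 2.54 in TRAP WT, and Atp5g2 22.4% ± 0.301 and 13.3% ± 6.43. The Atp5g2 share was 17.5% and 16.5% in TRAP WT replicates 1 and 2 and 5.90% in replicate 3. In KO it was 21.7% ± 0.638 in input and 17.0% ± 0.770 in TRAP. Atp5g1 held 10.0%, 8.05% and 13.1% in TRAP WT replicates 1 to 3, and Atp5g3 72.5%, 75.4% and 81.0%. The KO share of Atp5g1 was 5.98% ± 0.165 in input and 8.98% ± 0.374 in TRAP. That of Atp5g3 was 72.4% ± 0.583 and 74.0% ± 0.958.

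Per kb of transcript, complexes I and II had the lowest median levels in both fractions. The median level in input WT was 77.0 CPM per kb for complex I, 78.0 for complex II, 134 for complex III, 143 for complex IV and 155 for complex V. In TRAP WT it was 339 ± 97.2 for complex I, 202 ± 5.12 for complex II, 626 ± 206 for complex III, 717 ± 302 for complex IV and 610 ± 188 for complex V (SD of the medians of 3 libraries). The medians of complexes III, IV and V lay within their SDs of each other. That of complex IV includes its tissue-restricted isoforms, none of them above the 302 CPM per kb of Cox6b2 in TRAP WT. The common subunits of complex IV ran from 656 (Cox7b) to 3864 (Cox6a1). In TRAP WT, Cox6a1 with 3864 CPM per kb and Cox8a with 3204 led complex IV, and Ndufa1 led complex I with 1317. Uqcr11 led complex III with 1768, with a SD of 1263 (2447 without TRAP WT replicate 3), and Sdhd led complex II with 336. In complex V, Atp5j had 1642 with a SD of 1295, and Atp5g3 had 1516 with a SD of 261. The first place of Atp5j rests on TRAP WT replicate 3: without that library Atp5j had 896 and Atp5g3 1572. The lowest were Ndufs1 with 47.1 in complex I, Uqcrc2 with 120 in complex III, Sdha with 158 in complex II and Atp5g1 with 202 in complex V. These ranks depend on the transcript chosen: by the median transcript length, Atp5md was first of the 17 complex V genes and by the longest transcript it had rank 14.

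Transcript length was examined beside the log2 fold changes. The longest transcript had a median of 865 bases over the 85 members tested and 3089 bases over all genes tested. In WT the Spearman rank correlation between the longest transcript and the log2 fold change was -0.39 across the 85 members, -0.29 across 15890 genes with a length and -0.44 across 82 cytosolic ribosomal protein genes. By the median transcript length it was -0.47, -0.25 and -0.45. Genes of one library share its depth and fragment sizes, so these values are descriptions. The 18 members up to 600 bases had a median log2 fold change of 2.47, the 32 from 600 to 1000 bases 2.28, the 13 from 1000 to 1500 bases 1.96 and the 22 longer ones 1.58. When a length trend was fitted in each library and removed, the median of the members was 1.33 in WT and 1.30 in KO, beside -0.01 and -0.03 over all genes, with 79 and 78 members higher and 3 lower. Of all genes, 37.6% were then higher and 36.8% lower in WT, and 36.4% and 36.9% in KO.

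**Figure D4:**
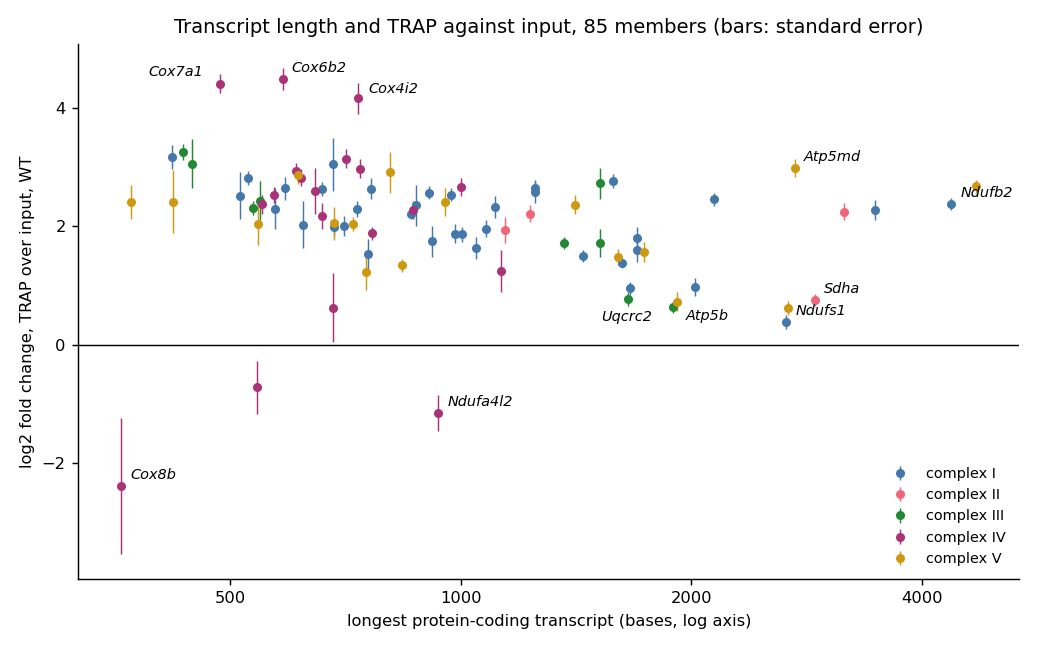
Log2 fold change of TRAP over input in WT, with its standard error, against the longest protein-coding transcript (log axis) for the 85 members, coloured by complex. By this length Ndufs1, Sdha, Uqcrc2 and Atp5b sit low among the long transcripts, while Atp5md and Ndufb2 are long and high. For Ndufs1 and Atp5md the longest transcript is over 3 times the median one.

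Genes that work with the subunits were compared in the same fit, in which 37.0% of all genes rose and 38.5% fell in WT and 36.3% and 39.6% in KO. Of 46 assembly factors, 45 rose in WT and 44 in KO, with medians of 1.68 and 1.58. Ndufaf8, a complex I assembly factor, had 3.44 ± 0.22 in WT, Cox17, which brings copper to complex IV, 2.99 ± 0.24, and Tmem70, needed to assemble the ATP synthase, 2.89 ± 0.13. Of 11 genes for electron carriers and their entry, 10 rose in WT and 9 in KO, led by Cycs, the somatic cytochrome c, with 2.96 ± 0.12. Of 16 genes of the citrate cycle and pyruvate dehydrogenase, 14 rose and 1 fell in each genotype, with medians of 0.91 in WT and 0.74 in KO. Suclg2, the GTP-forming subunit of succinyl-CoA ligase, fell by 1.27 in WT, while Sucla2, its ATP-forming counterpart, rose by 1.31 ± 0.13. Of 82 cytosolic ribosomal protein genes tested, 75 rose in WT and 76 in KO, with medians of 1.12 and 1.03. With library totals the assembly factors had 34 higher and 6 lower in WT, the citrate cycle genes 4 and 5, and the ribosomal protein genes 36 and 7, beside 19.6% and 61.1% of all genes. With length offsets these lists had 44 and 0, 13 and 1, and 42 and 6 in WT, with medians of 1.24, 0.70 and 0.41, beside 37.6% and 36.8% of all genes.

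Of 13 regulators of mitochondrial biogenesis, 4 rose, 6 fell and 3 did not pass the threshold in each genotype, which is near the shares of all genes, 37.0% and 38.5% in WT. Their summed level was 988, 1064 and 1531 CPM in TRAP WT replicates 1 to 3, and 909 to 981 CPM in TRAP KO. Esrra, the estrogen-related receptor that binds many oxidative phosphorylation genes, was 104 ± 4.32 CPM in input WT and 861 ± 293 in TRAP WT, a log2 fold change of 3.06 ± 0.17. Its relative Esrrg was 94.3 ± 3.92 and 27.4 ± 5.68 CPM and fell by 1.80. Tfb1m, Tfb2m and Tfam, factors of mitochondrial transcription and ribosome methylation, rose by 1.81 ± 0.14, 1.28 ± 0.13 and 0.63 ± 0.12. Ppargc1b fell by 2.29, Pprc1 by 0.87, Gabpa by 0.69, Nrf1 by 0.33 and Gabpb1 by 0.29. Ppargc1a, Polrmt and Yy1 had 0.13 ± 0.15, -0.21 ± 0.15 and -0.16 ± 0.13 and did not pass. With library totals 3 of the 13 rose and 9 fell, beside 19.6% and 61.1% of all genes, and Tfam passed in neither direction.

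Known binding letters of some of these regulators were searched in 300 bases around the RefSeq start, 250 before and 50 after, on both strands. A window was found for 69 members and for 27025 genes in all. The ETS letters CCGGAAG were in 17 members (24.6%) and in 9.93% of all genes. The palindromic NRF-1 element was in 5 members (7.25%) and 1.07% of all genes, and the YY1 element in 5 members (7.25%) and 0.995%. The ERR letters TCAAGGTCA were in 2 members (2.90%) and 0.466% of all genes. In all, 25 members held at least 1 of these and 4 held more than 1. The end of the ETS letters and the start of the YY1 element can be the same bases, so a window may count under both. A match describes letters in a window and is not a bound site. The windows of members were also richer in CG, with a median of 14 CG in 250 bases over 74 starts against 6 over all 32851 starts.

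The effect of Astn2 loss was tested within each fraction. In TRAP, 0 of the 82 members tested had an edgeR adjusted p under 0.05, as did 0.00707% of all genes, Astn2 alone. In the DESeq2 Wald test 0 members passed as well, beside 0.00707% of all genes higher in KO and 0.0141% lower. Unadjusted in edgeR, 5 members (6.10% of those tested) had a p under 0.05, beside 1.50% of all genes. This count was 15 without TRAP WT replicate 3, 9 without TRAP WT replicate 1 or 2 or TRAP KO replicate 1, 1 without TRAP KO replicate 2, and 0 without TRAP KO replicate 3 or 4. The median log2 fold change of KO over WT was -0.10 over the members, 23 of which were above 0, beside 0.00 over all genes. Without TRAP WT replicate 2 the median was 0.04, and without replicate 3 it was -0.26, so its sign rests on these libraries.

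The 5 members were Cox8a, Uqcr10, Cox6b1, Ndufa7 and Ndufb10, small subunits of complexes IV, III and I, and all were lower in KO. Over 78 members, the difference of a library from the other TRAP libraries had a Spearman correlation with transcript length. It was -0.26, -0.61 and 0.25 in TRAP WT replicates 1 to 3 and -0.44, 0.02, -0.06 and 0.42 in TRAP KO replicates 1 to 4. With length offsets the median of KO over WT in TRAP was -0.03 over the members. What sets these levels was not tested. Cox8a was 1404, 1973 and 1909 CPM in TRAP WT and 1364, 1174, 1196 and 862 CPM in TRAP KO, just without overlap. Its log2 fold change was -0.61 ± 0.22 (edgeR adjusted p = 1.00), and the range was -0.90 to -0.42 when single libraries were left out. Uqcr10 had -0.46 ± 0.18, Cox6b1 -0.50 ± 0.20, Ndufa7 -0.38 ± 0.16 and Ndufb10 -0.45 ± 0.19, all with the same adjusted p. In 6 members every KO library was below every WT library (Atp5g1, Cox6a1, Cox7a1, Cox8a, Ndufa7 and Ndufa8), 7.32% of the 82, beside 2.62% of all genes. In 0 members every KO library was above, beside 1.94% of all genes. Atp5j had the lowest estimate, -0.88 ± 0.44, and -0.17 without TRAP WT replicate 3. Ndufs5, Ndufs1 and Cox7a2l had the highest, 0.34 ± 0.27, 0.21 ± 0.16 and 0.20 ± 0.46.

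**Figure D5:**
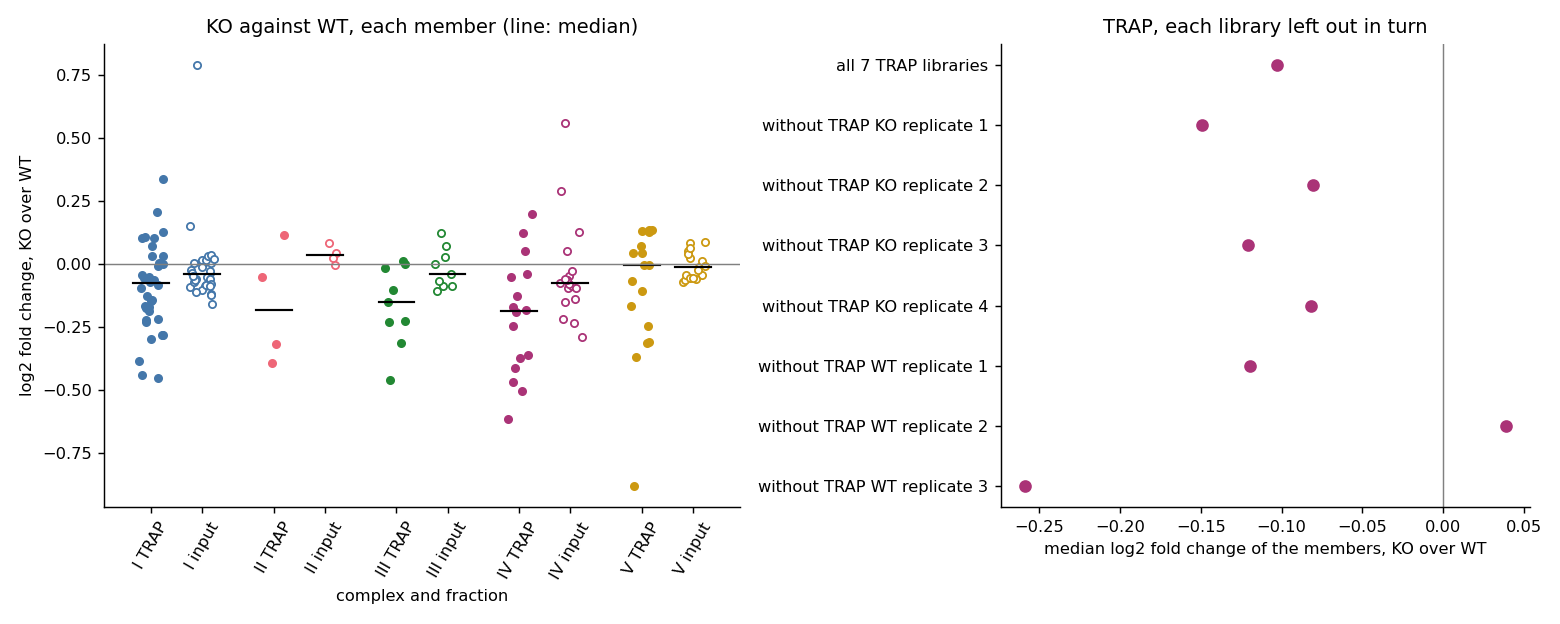
Left, log2 fold change of KO over WT for each member tested in TRAP (filled) and input (open), by complex, with a line at the median; right, the median over the members in TRAP with all 7 libraries and with each left out. No point passed an adjusted p of 0.05, and the median runs from -0.26 without TRAP WT 3 to 0.04 without TRAP WT 2.

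In input, 0 of 85 members had an edgeR adjusted p under 0.05, beside 0.0188% of all genes. The DESeq2 Wald test called 0 members, beside 0.631% of all genes higher in KO and 1.19% lower. Unadjusted in edgeR, 1 member had a p under 0.05 (5 without input KO replicate 2, and 0 without input KO replicate 1 or input WT replicate 1), beside 13.7% of all genes. This was Cox6a1, with 404, 349, 394 and 389 CPM in WT and 318, 381 and 332 CPM in KO, which overlap. Its log2 fold change was -0.23 ± 0.09 (edgeR adjusted p = 0.303). The median over the members was -0.04. In 0 members every KO input library was below every WT one, beside 3.66% of all genes, and in 0 members above, beside 7.78%. Among the named members, Uqcrc2 had 0.12 ± 0.06, Ndufb9 -0.16 ± 0.07, Cox4i1 -0.14 ± 0.07 and Ndufa2 -0.12 ± 0.06. Cox4i2 had 0.29 ± 0.19, and Cox8b, Ndufa4l2 and Cox7b2, all at low counts, had 0.56 ± 0.53, -0.29 ± 0.26 and -0.22 ± 0.34.

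The difference between the TRAP to input ratios of KO and WT was tested as an interaction. Of 85 members, 0 had an adjusted p under 0.05 in edgeR, beside 0.00% of all genes. In the DESeq2 Wald test it was 0 members, beside 0.00623% of all genes. Unadjusted in edgeR, 7 members (8.24%) were under 0.05, beside 2.68% of all genes. The estimates of Atp5j, Cox8a, Cox6b1, Ndufb10 and Uqcr10 were -1.11 ± 0.46, -0.50 ± 0.22, -0.46 ± 0.20, -0.45 ± 0.19 and -0.44 ± 0.18. The count ran from 1 to 15 with single libraries left out, 1 without TRAP KO replicate 2 or 4 or input KO replicate 2 or 3 and 15 without TRAP WT replicate 1. The value of Atp5j was -0.22 without TRAP WT replicate 3. A gene of typical precision among the members had an SE of 0.21 on the log2 scale in the TRAP genotype test.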

How the data were processed

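Per the labels, RNA of TRAP and input fractions of mouse cerebellum was sequenced. The authors deposited raw read counts per gene, with Entrez gene numbers as row names and no normalization; each of the 14 columns matched a sample label. The submitters' processing notes name mm10 and Salmon 0.8.2, and the annotation and strand setting are not given in the sources used here, so overlapping and near-identical genes are uncertain. Symbols came from a RefSeq gene table (GRCm38.p6), which matched 24045 of 24100 rows. Of the symbols the rule covers, Ndufb1, Ndufb4b and Ndufb4c have no row and were not analysed here, nor were the mitochondrially encoded subunits.

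Tests used edgeR 4.0.16 (R 4.3.3) quasi-likelihood fits with TMM factors, filterByExpr, sex as a covariate and Benjamini-Hochberg adjustment over all genes tested at 0.05, two-sided. Genotype was tested in the 7 libraries of a fraction, and TRAP against input and the interaction in all 14. The filter kept 82 members in the TRAP genotype test and 85 in the others; Cox8c was never tested. SEs were obtained from the F statistic (the size of the log2 fold change over its square root). Levels per kb used the longest GENCODE M21 protein-coding transcript. The floor of 3 counts, 0.0444 to 0.204 TMM-scaled CPM, covers counting error only: there are no molecular identifiers, so reads are not independent. Between libraries of a group, chi-square per degree of freedom was 8.63 to 267, so none were merged.

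Members and lists were chosen with earlier results of these data known. Named were the 3 highest and 3 lowest log2 fold changes of each complex, the isoform families, and for genotype the 5 smallest p and the 3 extremes in each direction. Outside this rule, log2 fold changes of TRAP over input are also given for Cox7c, Cox6c, Cox7a2l and Cyc1. Alternatives were DESeq2 size factors, library totals, no filter, the Wald test of DESeq2 1.42.0, a fit without sex, quality weights (limma 3.58.1), loess offsets for transcript length (span 0.3), a replicate block, all 14 libraries in one fit, and each library left out. Added after seeing the data were the sum of Ndufs5 with its pseudogene and shares by median transcript length. The fits were also run on simulated counts in which few genes were changed, evenly up and down. Far more genes differ between TRAP and input, so that run does not test the scaling there.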

Additional observations from a re-analysis of the deposited data

Results flagged for a closer look

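In 3 of the 49 group values tested for a far sample, the gap of 1 library to the nearest other took up more of the group's range than Dixon's test allows for 4 samples. Chance alone gives this in about 1 in 20 groups. Cox8a in input WT replicate 2 was at 8.30 on the log2(CPM + 1) scale, and the other 3 libraries lay at 8.46 to 8.48. Both remaining cases were in TRAP KO replicate 4: Cox4i1 was at 10.4 against 10.65 to 10.69 in the other KO libraries, and Cox6a1 was at 10.4 against 10.85 to 10.89. This library had its lowest TRAP level in 20 of the 78 members that are not tissue-restricted isoforms.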

How the results depend on the processing

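No member passed an adjusted p of 0.05 for genotype or interaction under any alternative, and the members' median in TRAP over input stayed above 0 under all of them. Counts at an unadjusted p under 0.05, which are 5 in TRAP, 1 in input and 7 for the interaction, did move. They were 3 in TRAP and 2 for the interaction with library totals, 11 in TRAP and 2 in input without the sex covariate, and 11 for the interaction in the DESeq2 Wald test. They were 16, 2 and 0 with sample quality weights, 19 in TRAP and 0 in input with all 14 libraries in one fit, and 2 in TRAP with length offsets, which moved the input median to 0.027. The cause was not tested.

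With library totals the WT medians were 1.45 for the members, 1.46, 1.26, 1.48, 1.70 and 1.23 for complexes I to V, with 4 members lower. In KO they were 1.44, and 1.41, 0.92, 1.28, 1.62 and 1.34. Below 0 in WT were then Ndufs1 (-0.44), Sdha (-0.063), Uqcrc1 (-0.041), Uqcrc2 (-0.18), Cox6a2 (-0.19), Atp5a1 (-0.20) and Atp5b (-0.090), and in KO Ndufs1 (-0.33), Uqcrc2 (-0.24) and Atp5a1 (-0.055). Of these, only Ndufs1 passed the threshold as lower, in both genotypes. With length offsets the WT medians were 1.33, and 1.36, 1.45, 1.26, 1.42 and 1.22, with 3 members lower and Cox6a2 at -0.36, and the KO medians 1.30, and 1.32, 1.15, 0.95, 1.31 and 1.03. With quality weights 2 members were lower in WT, complex II had 1.84, and Cox7a2l for genotype in TRAP was -0.054. Ndufs5 summed with its pseudogene had -0.31 for genotype in TRAP and -0.057 in input.

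The level of complex II in TRAP WT was 151 CPM per kb with library totals. By median transcript length, complexes I, II and V were at 445, 340 and 845 CPM per kb, and the isoform shares were 14.8% for Cox6b2 in TRAP WT, 16.7%, 10.1%, 69.9% and 66.9% for Atp5g1 and Atp5g3 in TRAP WT and input WT, and 23.0% for Atp5g2 in input WT. Summed over members, complexes I to V held 14206, 983, 6680, 23007 and 12201 CPM per kb in TRAP WT.

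Labels do not say that TRAP and input libraries of one number share an animal. Same-numbered deviations correlated at 0.252, 0.239 and 0.0927 in WT and 0.211, 0.184 and -0.0591 in KO, and in neither genotype was every library closest to its own number. With the replicate number as a block, 0 members had an unadjusted p under 0.05 in TRAP and 0 for the interaction, complex III had 2.19 in WT, and 80 and 81 members rose in WT and KO.

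With 1 library left out, the WT median ran from 1.96 to 2.43 for the members, 1.85 to 2.45, 1.83 to 2.11, 1.97 to 2.38, 2.22 to 2.55 and 1.73 to 2.41 for complexes I to V, with 1 to 2 members lower. In KO it ran from 2.06 to 2.22, with 2.02 to 2.21 for complex I, 1.57 to 1.70 for complex II, 1.95 to 2.13 for complex V, and 1 to 3 members lower. The interaction median ran from -0.26 to 0.054, and unadjusted counts from 0 to 15 in TRAP, 0 to 5 in input and 1 to 15 for the interaction. For genotype in TRAP, Cox7a2l ran from -0.21 to 0.90 and Ndufs5 from -0.063 to 0.52, and Cox6a2 in KO from -0.55 to 1.10. Low counts limit Cox7b2 and Cox8b, which had 0 to 8 counts in each TRAP library.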
